A study of Mus musculus with 12 samples.

Results

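Binding of RNA polymerase II (Pol II) was described at the proteasome genes of the mouse duodenal epithelium. The genes were taken by symbol: Psm, a letter from a to g and a digit. Of the 6429 genes in both of the authors' deposited tables, 33 carried such a symbol. They comprised 10 subunits of the constitutive core particle, 13 subunits of the regulatory particle, and an immunoproteasome group of 5. The other 5 were the assembly chaperones Psmg1 and Psmg3, the activator Psme3, the inhibitor Psmf1, and Psmc3ip. Psmc3ip is taken by the rule, but its product is a partner of recombination proteins in meiosis and no proteasome subunit. A RefSeq gene table holds 57 mouse symbols of this form, 51 of them protein coding. Of these, 18 protein-coding genes were not analysed here, among them Psma5, Psmb1, Psmb2, Psmb5, Psmd1, Psmd11, Psmd13 and Psmd14.

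The proteasome degrades proteins that carry a chain of ubiquitin. Its barrel-shaped core particle has outer rings of alpha subunits, which gate the entrance, and inner rings of beta subunits, some of which cut peptide bonds. The regulatory particle caps the barrel: ubiquitin receptors bind the substrate, the lid holds the enzyme that removes ubiquitin, and a ring of ATPases unfolds the protein and feeds it into the core. Interferon induces alternative catalytic subunits, Psmb8, Psmb9 and Psmb10, which replace Psmb5, Psmb6 and Psmb7 in newly built cores and yield peptides suited to presentation on MHC class I. Psme1 and Psme2 form an interferon-inducible activator that caps the core without needing ATP. NFE2L1 is the transcription factor known to raise subunit genes together when proteasome activity is short.

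Chromatin bound by Pol II was immunoprecipitated and sequenced (ChIP-seq). The labels list 3 Pol II libraries and 1 input library for each of 3 groups, which makes 12 samples. The groups were wild-type (WT) villus, WT crypt, and villus labelled Hnf4 alpha gamma DKO, a double knockout of the transcription factors HNF4A and HNF4G. Stem cells and their dividing offspring sit in the crypts, and the villi carry differentiated cells, above all absorptive enterocytes. Per the labels' protocols, the mutants received tamoxifen at 50 mg per kg a day by intraperitoneal injection for 2 days and were killed 1 day after the last injection, and the controls received the oil vehicle. Mutant tissue was kept for 25 min and control tissue for 35 min in 3 mM EDTA, and a 70 µm filter separated crypts from villi in all groups. Genotype, tamoxifen and EDTA time therefore cannot be told apart. The alleles, the Cre driver and the ages are not given in the sources used here. No label says that libraries came from separate animals, so the p-values may measure only technical spread between libraries.

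All values below come from the authors' deposited tables of DESeq2 results or were computed from them. A positive log2 fold change means more signal in WT villus, as the tables' names put it. Errors after ± are the deposited standard errors (SE) on the log2 scale, and a gene is called at an adjusted p under 0.05. Pol II at the targeted genes was higher in the labelled-DKO villus: the WT over DKO log2 fold change was -0.54 ± 0.14 at Hnf4a and -1.45 ± 0.22 at Hnf4g (adjusted p = 4.84e-04 and 7.81e-10). The window counted is not given in the sources used here, so this signal is no test for a deletion of part of a gene. The windows of Hnf4a also overlap those of Hnf4aos. Every direction given for the labelled-DKO group rests on its label. All 15 tested enterocyte markers were higher in WT villus than in crypt (median log2 fold change 1.45) and than in labelled-DKO villus (median 2.29). All 5 tested crypt markers were lower in WT villus than in crypt (median -0.68), and 3 of the 5 were lower than in labelled-DKO villus. In such bulk samples a change in the share of a cell type and a change in Pol II per cell cannot be told apart. Of 5 tested immune markers, Cd74, H2-Aa and H2-Ab1, which enterocytes can also express, were higher in WT villus in both comparisons, and Gzma and Gzmb passed the threshold in neither.

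The proteasome genes lie on 12 chromosomes, 7 of the 33 on chromosome 11, and span between 2.502 kb (Psmb6) and 55.861 kb (Psmb7). Their mean signal over all libraries had a median of 104 normalised counts, against 144 for all genes, and 26 of the 33 were below that median of all genes. The windows of 9 overlap those of another gene. These pairs are Psma2 with Mrpl32, Psma3 with 3110056K07Rik, Psma4 with AY074887, Psma7 with Ss18l1, Psmb9 with Tap1, Psmc2 with Dnajc2, Psmc5 with Ftsj3, Psme1 with Emc9, and Psmc3ip with Mlx. Reads in the overlap cannot be assigned to one of the pair. Psmb6 and Psmb7 also have pseudogenes and Psme2 a near copy, Psme2b, with which reads could be shared.

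Of all 33 genes, 13 (39.4%) were called in either direction against crypt and 18 (54.5%) against labelled-DKO villus, close to the 37.4% and 51.9% of all genes. The directions were uneven. Every subunit of the constitutive proteasome that was called carried less Pol II in WT villus than in the group it was compared with. Against crypt, 9 of the 23 core and regulatory subunits were called lower in WT villus and 0 higher, with a median log2 fold change of -0.22. That is 39.1%, where 18.8% of all genes were called lower and 18.6% higher, around a median of -0.04. Against labelled-DKO villus, 13 of the 23 (56.5%) were called lower in WT villus and 0 higher, with a median of -0.33. The background for this comparison was 29.5% lower and 22.4% higher, around a median of -0.08. After centring on the median of all genes, 8 of the 23 (34.8%) were called lower against crypt, where all genes gave 14.8% lower and 21.1% higher. Centred in this way, 11 (47.8%) were called lower against labelled-DKO villus, where all genes gave 22.1% lower and 26.6% higher. At an adjusted p under 0.01 the count against crypt was 5 (21.7%), with 12.5% of all genes lower. The 2 comparisons share the WT villus libraries. Only 1 of these 23 genes was called with a log2 fold change beyond 0.5 in either comparison, Psma1 against crypt.

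**Figure D1:**
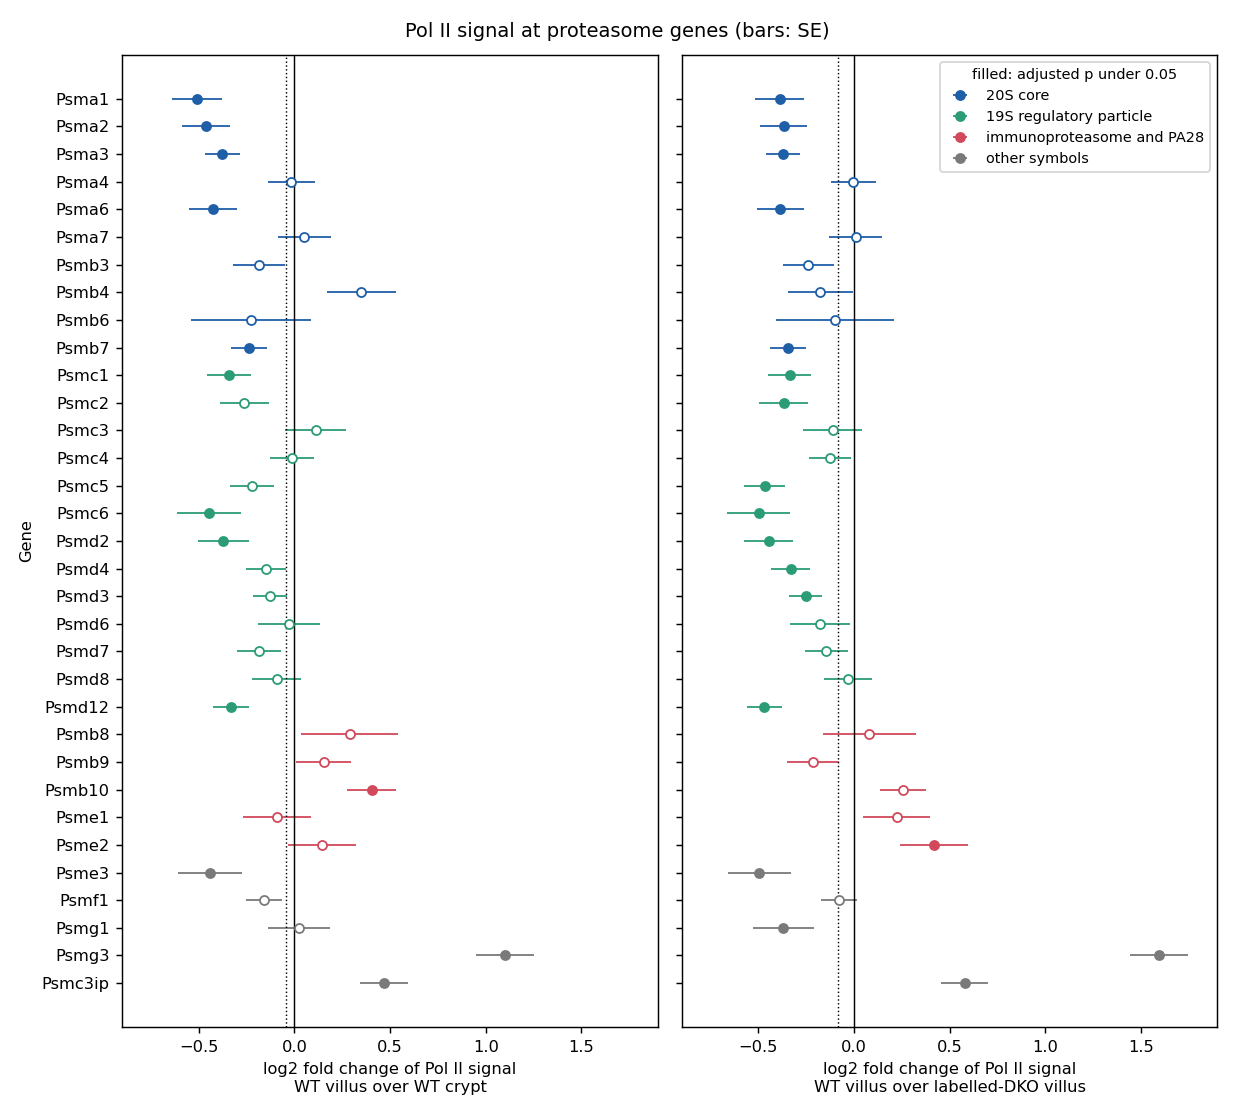
Log2 fold change of Pol II signal (horizontal axis) at each of the 33 genes (vertical axis), for WT villus over WT crypt and WT villus over labelled-DKO villus. Points are deposited values, bars are SE, filled points passed an adjusted p of 0.05, and the dotted line is the median of all genes; Psmg3 lies farthest to the right in both panels, at 1.10 and 1.60.

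Promoters are shown for 6 genes that the results below turn on, chosen after their values were seen: 3 subunits with lower signal in WT villus (Psma1, Psmc6, Psmd12), a pair of immunoproteasome subunits (Psmb9, Psmb10), and Psmg3, the gene with the largest fold change. Each runs 5′ to 3′ from 250 bases before the start site to 50 after it, from RefSeq, build GRCm38.p6. The positions are chr7:114276067-114276366 on the minus strand for Psma1, chr14:45329574-45329873 on the plus strand for Psmc6, chr11:107479278-107479577 on the plus strand for Psmd12, chr17:34187281-34187580 on the minus strand for Psmb9, chr8:105938343-105938642 on the minus strand for Psmb10, and chr5:139826845-139827144 on the minus strand for Psmg3. Capitals mark matches, on either strand, to the motifs listed in the next paragraph.
Psma1: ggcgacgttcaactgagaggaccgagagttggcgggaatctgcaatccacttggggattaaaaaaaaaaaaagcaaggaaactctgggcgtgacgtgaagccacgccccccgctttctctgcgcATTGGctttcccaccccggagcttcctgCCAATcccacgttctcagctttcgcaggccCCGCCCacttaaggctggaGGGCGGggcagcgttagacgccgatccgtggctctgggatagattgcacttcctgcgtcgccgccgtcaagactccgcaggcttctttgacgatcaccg
Psmc6: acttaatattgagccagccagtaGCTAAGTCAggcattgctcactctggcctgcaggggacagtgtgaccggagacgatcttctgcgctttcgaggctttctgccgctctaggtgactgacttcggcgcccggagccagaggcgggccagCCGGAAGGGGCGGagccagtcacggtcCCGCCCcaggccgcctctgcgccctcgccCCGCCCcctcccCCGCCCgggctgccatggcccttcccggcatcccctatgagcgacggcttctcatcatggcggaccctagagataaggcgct
Psmd12: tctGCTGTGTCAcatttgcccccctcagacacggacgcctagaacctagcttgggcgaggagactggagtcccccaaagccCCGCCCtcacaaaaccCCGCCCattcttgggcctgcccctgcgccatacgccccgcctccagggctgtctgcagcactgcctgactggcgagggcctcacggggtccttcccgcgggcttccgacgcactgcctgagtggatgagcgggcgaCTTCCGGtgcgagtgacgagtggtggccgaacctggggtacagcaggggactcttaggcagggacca
Psmb9: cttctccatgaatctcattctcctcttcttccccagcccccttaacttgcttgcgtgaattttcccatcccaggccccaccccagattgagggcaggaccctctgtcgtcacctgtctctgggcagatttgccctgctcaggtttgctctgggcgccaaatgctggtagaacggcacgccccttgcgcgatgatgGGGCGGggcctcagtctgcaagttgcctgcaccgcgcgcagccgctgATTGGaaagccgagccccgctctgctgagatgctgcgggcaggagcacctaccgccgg
Psmb10: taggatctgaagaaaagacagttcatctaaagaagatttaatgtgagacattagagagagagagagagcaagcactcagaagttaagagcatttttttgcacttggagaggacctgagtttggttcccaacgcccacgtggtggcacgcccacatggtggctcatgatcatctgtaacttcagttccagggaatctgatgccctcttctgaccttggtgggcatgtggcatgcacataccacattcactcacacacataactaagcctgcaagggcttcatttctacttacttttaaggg
Psmg3: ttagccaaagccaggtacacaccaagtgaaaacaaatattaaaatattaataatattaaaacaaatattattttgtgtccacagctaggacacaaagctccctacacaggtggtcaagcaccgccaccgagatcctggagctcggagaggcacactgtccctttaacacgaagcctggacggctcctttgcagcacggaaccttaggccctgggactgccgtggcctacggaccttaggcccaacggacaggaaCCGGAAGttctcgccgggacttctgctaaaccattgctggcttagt

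Of the 33 genes, 29 have an entry in that promoter table. The ETS family motif CCGGAAG was in 12 of the 29 (41.4%), in 8.86% of all 32851 promoters, and in 21.5% of the 5161 promoters of genes in the deposited tables. It was in the promoters of Psmc6, Psmd12 and Psmg3 printed above, in the last of these 5 bases after the start site. The NFE2L1 and NFE2L2 core TGACNNNGC was in 3 of 29 (10.3%), Psmb6, Psmc6 and Psmd12, against 12.4% of all promoters and 17.4% of those of genes in the deposited tables. The NF-Y box CCAAT was in 12 (41.4%, against 37.4%) and the Sp1 box GGGCGG in 15 (51.7%, against 35.7%). Genes of the deposited tables held these last 2 motifs in 42.8% and 67.8% of promoters, and the 3 motifs that follow in 3.51%, 7.83% and 6.67%. The interferon element, GAAA, any 2 bases and GAAA again, was in Psmb3, Psmd4 and Psme1 (10.3%, against 3.44%). The STAT element TTCNNNGAA was in Psmb8, Psmd2 and Psmg1 (10.3%, against 8.3%). The HNF4 motif CAAAGNNCA was in Psma6 alone (3.45%, against 6.36%), and the Psmb10 window held none of the 7 motifs. Both strands were searched, and no matches in the 6 printed promoters overlapped. A match is a run of letters and not a measured binding site.

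In the core particle, the alpha ring held most of the calls. Psma1, Psma2, Psma3 and Psma6 were lower in WT villus in both comparisons, which is 4 of the 6 alpha subunits tested, with class medians of -0.40 against crypt and -0.37 against labelled-DKO villus. This is 66.7% in each comparison, where 18.8% of all genes were called lower against crypt and 29.5% against labelled-DKO villus. The share of all genes called lower in both is not given here. Group means of the normalised counts were rebuilt from the deposited mean and fold changes, and carry no error. For Psma1 (mm9, chr7:121408064-121419630, minus strand) they were 86.0 in WT villus, 122 in crypt and 112 in labelled-DKO villus. Crypt was 1.42-fold and labelled-DKO villus 1.31-fold above WT villus. The deposited log2 fold changes of Psma1 were -0.51 ± 0.13 (adjusted p = 5.34e-04) against crypt and -0.39 ± 0.13 (adjusted p = 0.00658) against labelled-DKO villus. Psma2 had 85.2 in WT villus, 117 in crypt and 110 in labelled-DKO villus, with changes of -0.46 ± 0.12 and -0.37 ± 0.12. Psma3 (170, 221 and 220) and Psma6 (145, 194 and 189) kept this arrangement, with WT villus lowest and little between the other groups. Psma3 had changes of -0.38 ± 0.09 and -0.37 ± 0.09. Psma6 had -0.42 ± 0.12 and -0.38 ± 0.12.

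The remaining alpha subunits stayed near 0. Psma4 was at -0.02 ± 0.12 against crypt and -0.00 ± 0.12 against labelled-DKO villus (95% interval -0.26 to 0.22 and -0.23 to 0.23). Psma7 was at 0.05 ± 0.14 and 0.01 ± 0.14 (intervals -0.22 to 0.33 and -0.26 to 0.28). These intervals include neither of the Psma1 values. Those values have their own intervals, -0.76 to -0.25 and -0.64 to -0.14. They overlap the intervals of Psma4 in both comparisons and that of Psma7 against labelled-DKO villus, but not that of Psma7 against crypt. Differences between these genes were not tested.

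Of the beta subunits that build the ring without cutting, Psmb3 was at -0.18 ± 0.14 against crypt and -0.24 ± 0.13 against labelled-DKO villus, and Psmb4 at 0.35 ± 0.18 and -0.18 ± 0.17, none of which passed (adjusted p between 0.116 and 0.392). The tables hold 2 of the 3 constitutive catalytic subunits. Psmb7, with trypsin-like activity (mm9, chr2:38443566-38499426, minus strand), was lower in WT villus, at 336 against 396 in crypt and 427 in labelled-DKO villus. Its log2 fold changes were -0.24 ± 0.09 (adjusted p = 0.0338) and -0.35 ± 0.09 (adjusted p = 7.56e-04). The call against crypt was lost after centring on the median of all genes, at -0.20, and at an adjusted p under 0.01. Psmb6, with caspase-like activity, had the lowest signal of all the proteasome genes, a mean of 33.2, and the widest errors. Its values were -0.23 ± 0.31 and -0.10 ± 0.31. The intervals, from -0.84 to 0.39 and from -0.70 to 0.51, do not exclude a change as large as that of Psma1.

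In the regulatory particle, all 13 subunits had a value below 0 against labelled-DKO villus and 8 of them (61.5%) were called, around a median of -0.33. Against crypt 12 were below 0 and 4 were called (30.8%), around a median of -0.19. Of all 6429 genes, 3660 were below 0 and 29.5% were called lower against labelled-DKO villus, and 3512 and 18.8% against crypt. Centring on the median of all genes left Psmd8 above 0, at 0.05, in the first of these comparisons and Psmc4 and Psmd6 above 0, at 0.03 and 0.01, in the second. Psmc1, Psmc6, Psmd2 and Psmd12 were called in both, and Psmc2, Psmc5, Psmd3 and Psmd4 against labelled-DKO villus alone. Whether these 4 differ between the comparisons is the comparison of labelled-DKO villus with crypt below, where none of them was called.

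Among the 6 ATPases, 4 (66.7%) were called lower against labelled-DKO villus (class median -0.35) and 2 (33.3%) against crypt (median -0.24). Of all genes, 29.5% and 18.8% were called lower in these comparisons. Psmc6 (mm9, chr14:45949499-45968746, plus strand) was lowest in both. Its rebuilt means were 114 in WT villus, 155 in crypt and 161 in labelled-DKO villus, so that both other groups lay above WT villus, labelled-DKO villus by 1.41-fold. Its log2 fold changes were -0.45 ± 0.17 (adjusted p = 0.0239) and -0.50 ± 0.17 (adjusted p = 0.00694). Psmc5 was at -0.22 ± 0.11 (adjusted p = 0.116) and -0.47 ± 0.11 (adjusted p = 7.12e-05), and its neighbour in the shared window, Ftsj3, an RNA methyltransferase of the nucleolus, was at -0.44 and -0.67. Psmc1 was at -0.34 ± 0.11 in both comparisons. Psmc2 was at -0.26 ± 0.13 (adjusted p = 0.102) and -0.37 ± 0.13 (adjusted p = 0.0103). Psmc3 had the highest values of the ring, 0.11 ± 0.16 against crypt and -0.11 ± 0.15 against labelled-DKO villus, and with Psmc4 (-0.01 ± 0.11 and -0.13 ± 0.11) it passed in neither.

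The base scaffold Psmd2 was at -0.37 ± 0.13 (adjusted p = 0.0170) against crypt and -0.45 ± 0.13 (adjusted p = 0.00177) against labelled-DKO villus. The ubiquitin receptor Psmd4 was at -0.15 ± 0.11 (adjusted p = 0.284) and -0.33 ± 0.10 (adjusted p = 0.00351). In the lid, 1 of 5 subunits (20.0%) was called lower against crypt and 2 (40.0%) against labelled-DKO villus. Of all genes, 18.8% and 29.5% were called lower, so with 5 genes these counts lie close to the background. Psmd12 (mm9, chr11:107340842-107359350, plus strand), a structural lid subunit, had the smallest adjusted p of the core and regulatory genes against labelled-DKO villus. Its means were 116 in WT villus, 146 in crypt and 160 in labelled-DKO villus, with log2 fold changes of -0.33 ± 0.09 (adjusted p = 0.00199) and -0.47 ± 0.09 (adjusted p = 1.87e-06). Psmd3 followed against labelled-DKO villus, at -0.25 ± 0.09 (adjusted p = 0.00772), and was at -0.13 ± 0.09 against crypt. The other lid subunits passed in neither comparison: Psmd6 was at -0.03 ± 0.16 and -0.18 ± 0.16, Psmd7 at -0.19 ± 0.12 and -0.15 ± 0.11, and Psmd8 at -0.09 ± 0.13 and -0.03 ± 0.13.

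**Figure D2:**
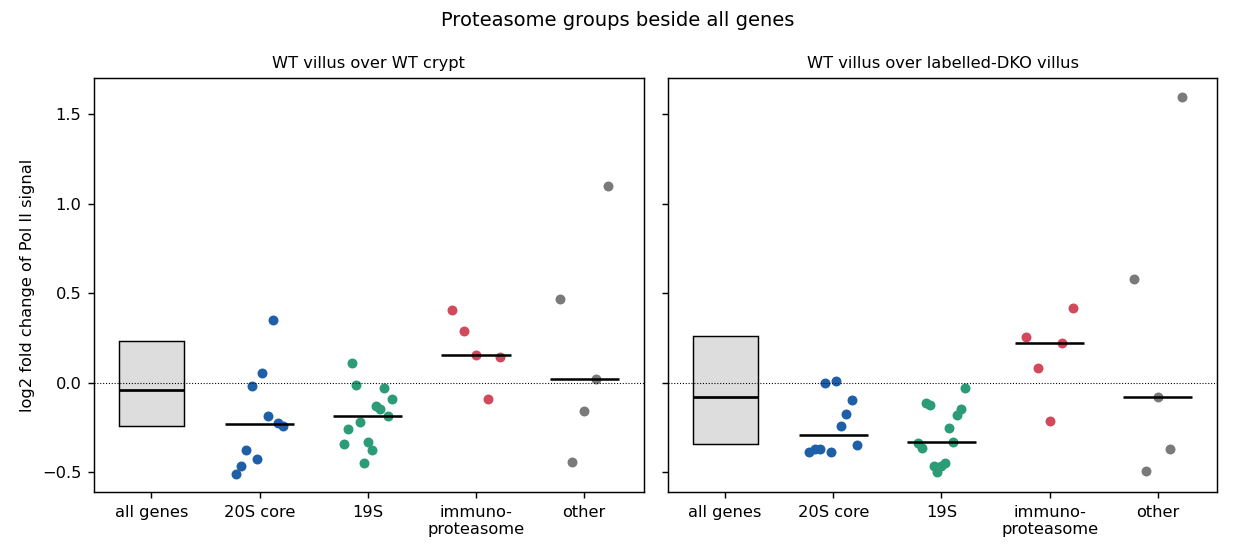
Log2 fold change of Pol II signal (vertical axis) by gene group, with 1 point per gene and a line at each group's median; the grey box spans the quartiles of all 6429 genes, with their median. The core and regulatory medians lie below that of all genes in both panels, at -0.23 and -0.19 against crypt and -0.29 and -0.33 against labelled-DKO villus, and the immunoproteasome medians above it, at 0.15 and 0.22.

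In the immunoproteasome group 0 of 5 genes were called lower in WT villus in either comparison, and 1 (20.0%) was called higher in each. The shares of all genes were 18.8% lower and 18.6% higher against crypt, and 29.5% lower and 22.4% higher against labelled-DKO villus, so with 5 genes these counts lie close to the background. The difference from the constitutive subunits was not tested. The median log2 fold change was 0.15 against crypt and 0.22 against labelled-DKO villus. Psmb10 (mm9, chr8:108459628-108462292, minus strand), the replacement of Psmb7, was higher in WT villus than in crypt. Its means were 107 in WT villus, 81.1 in crypt and 89.9 in labelled-DKO villus, and the changes were 0.40 ± 0.13 (adjusted p = 0.00607) and 0.26 ± 0.12 (adjusted p = 0.0654). The intervals against crypt were 0.15 to 0.65 for Psmb10 and -0.42 to -0.05 for Psmb7, whose call there was lost after centring. These genes span 2665 and 55861 bp, and the values of the 33 genes went with length, as given below. For Psmb9 and Psmb6, the other pair with both members tested, the intervals against crypt overlapped, at -0.13 to 0.43 and -0.84 to 0.39. Psmb8, the replacement of Psmb5, was at 0.29 ± 0.25 (adjusted p = 0.395) and 0.08 ± 0.24 (adjusted p = 0.805), with intervals from -0.21 to 0.79 and -0.40 to 0.56. Psmb9, which replaces Psmb6, was at 0.15 ± 0.14 (adjusted p = 0.429) and -0.21 ± 0.14 (adjusted p = 0.181). It lies 10865 bp from Psmb8 on chromosome 17 and shares a window with Tap1, a subunit of the peptide transporter, which was at 0.17 and 0.20 and not called either.

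The activator genes Psme1 and Psme2 lie 5913 bp apart on chromosome 14. Psme2 was higher in WT villus than in labelled-DKO villus, with means of 65.1 and 48.7 and a log2 fold change of 0.42 ± 0.18 (adjusted p = 0.0367). Against crypt, at 58.9, it was at 0.15 ± 0.18 (adjusted p = 0.562). Psme1 was at -0.09 ± 0.18 and 0.22 ± 0.18 (adjusted p = 0.724 and 0.291). The related nuclear activator Psme3, which interferon does not induce, was lower in WT villus in both comparisons, at -0.44 ± 0.17 (adjusted p = 0.0248) and -0.49 ± 0.16 (adjusted p = 0.00625). Its means were 67.9 in WT villus, 92.2 in crypt and 95.7 in labelled-DKO villus. The inhibitor Psmf1 was at -0.16 ± 0.10 and -0.08 ± 0.09 and passed in neither.

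**Figure D3:**
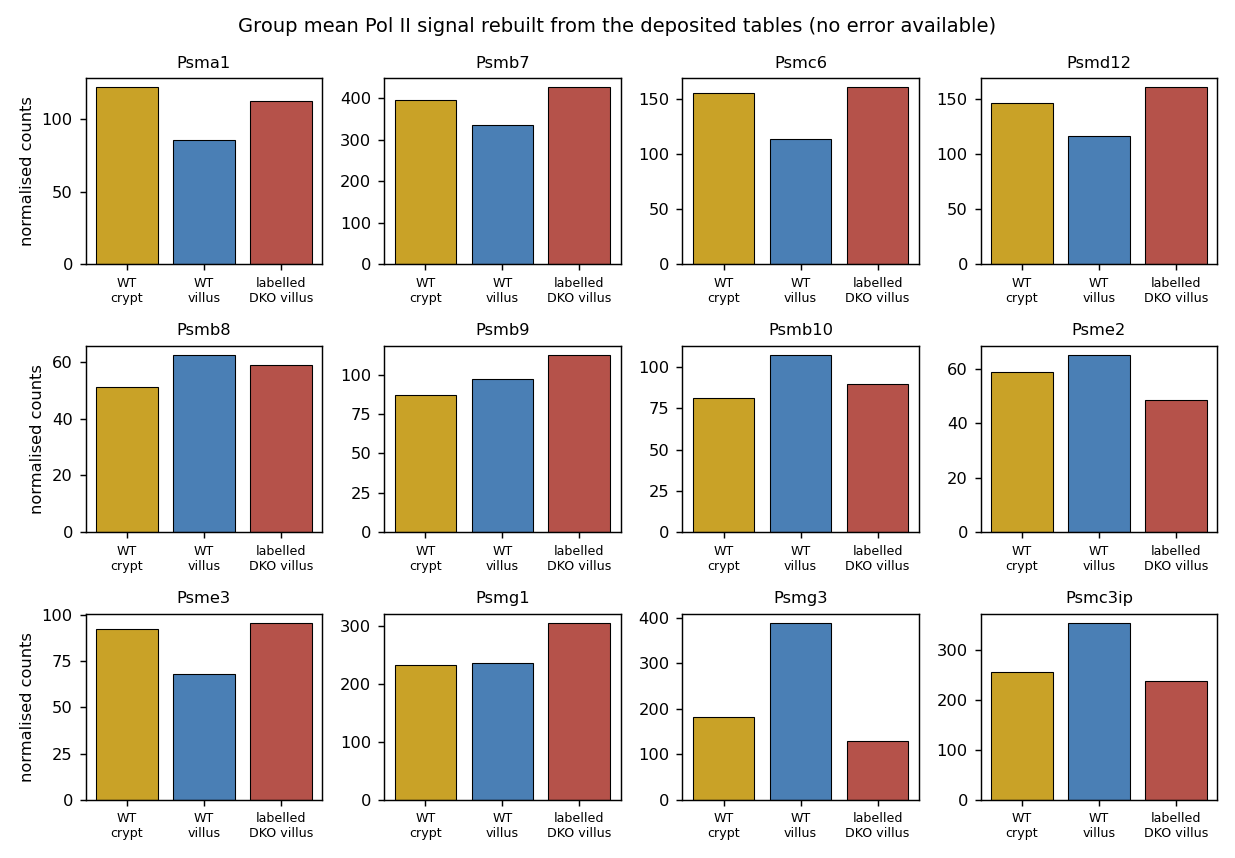
Group mean Pol II signal in normalised counts (vertical axes from 0, with 1 scale per gene) in WT crypt, WT villus and labelled-DKO villus for 12 genes, rebuilt from the deposited tables with no error available. Psma1, Psmb7, Psmc6, Psmd12 and Psme3 are lowest in WT villus, while Psmb10, Psme2, Psmg3 and Psmc3ip are highest there.

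The largest change among the 33 genes was in an assembly factor. Psmg3 encodes a chaperone that, with other assembly factors, helps arrange the alpha subunits into a ring. At Psmg3 (mm9, chr5:140299567-140302848, minus strand) the means were 389 in WT villus, 182 in crypt and 129 in labelled-DKO villus. WT villus was 2.14-fold above crypt (log2 fold change 1.10 ± 0.15, adjusted p = 1.39e-11) and 3.02-fold above labelled-DKO villus (1.60 ± 0.15, adjusted p = 5.16e-24). The values lie at percentiles 97.2 and 97.4 of all genes in the tables. No window overlaps Psmg3. The nearest, that of Tmem184a, is 8480 bp away and was at 0.56 (adjusted p = 5.89e-06) and 0.11 (adjusted p = 0.390). The chaperone Psmg1, by contrast, was lower in WT villus than in labelled-DKO villus, at 237 against 306 (-0.37 ± 0.16, adjusted p = 0.0391), and at 0.02 ± 0.16 against crypt. Psmc3ip was higher in WT villus in both comparisons, at 0.47 ± 0.12 (adjusted p = 9.02e-04) and 0.58 ± 0.12 (adjusted p = 1.27e-05). Its overlapping neighbour Mlx, a partner of glucose-sensing transcription factors, showed larger values in the same direction, 0.64 and 1.06 (adjusted p = 7.24e-07 and 5.39e-18).

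The groups also differed in gene length, and the calls moved with it. The median length was 10817 bp for the core genes, 9924 bp for the regulatory genes, and 3260 bp for the immunoproteasome group, against 12056 bp for all genes with a length. Of the 8 proteasome genes up to 5 kb, 0 were called lower in WT villus in either comparison and 3 (37.5%) were called higher in each. All genes of that length were called lower in 12.7% and 20.3% of cases and higher in 16.5% and 19.4%, against crypt and labelled-DKO villus. Of the 11 between 5 and 10 kb, 1 (9.09%) was lower against crypt and 3 (27.3%) against labelled-DKO villus, with 14.8% and 23.3% of all genes of that length. Of the 10 between 10 and 20 kb these counts were 6 (60.0%) and 9 (90.0%), with 19.5% and 30.4% of all genes. Of the 4 longer genes they were 3 and 3, with 24.9% and 39.1% of all genes. Against crypt, the call between 5 and 10 kb was Psme3, and the 2 core and 7 regulatory genes of that length held 0 calls. The 9 core and regulatory genes called lower against crypt all spanned at least 11034 bp. Across the 33 genes, Spearman's rho of the log2 fold change with length was -0.72 against crypt and -0.69 against labelled-DKO villus. Across all 6388 genes with a length it was -0.01 and -0.04. These genes share their libraries and are not independent.

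Among all genes the share called lower also went up with length, and so did the share called higher, from 16.5% to 19.3% against crypt and from 19.4% to 25.5% against labelled-DKO villus, between genes up to 5 kb and those over 20 kb. The median log2 fold change moved only from -0.01 to -0.06 and from -0.04 to -0.12. The core genes up to 5 kb are Psmb4 and Psmb6, neither of which was called, so the short immunoproteasome genes have few constitutive subunits of their own length beside them. The subunits called lower against labelled-DKO villus also had a higher median signal than the others, 120 against 87.4 normalised counts, and a smaller median SE, 0.11 against 0.14. The part of length and signal in the difference between the groups was not tested beyond these values.

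**Figure D4:**
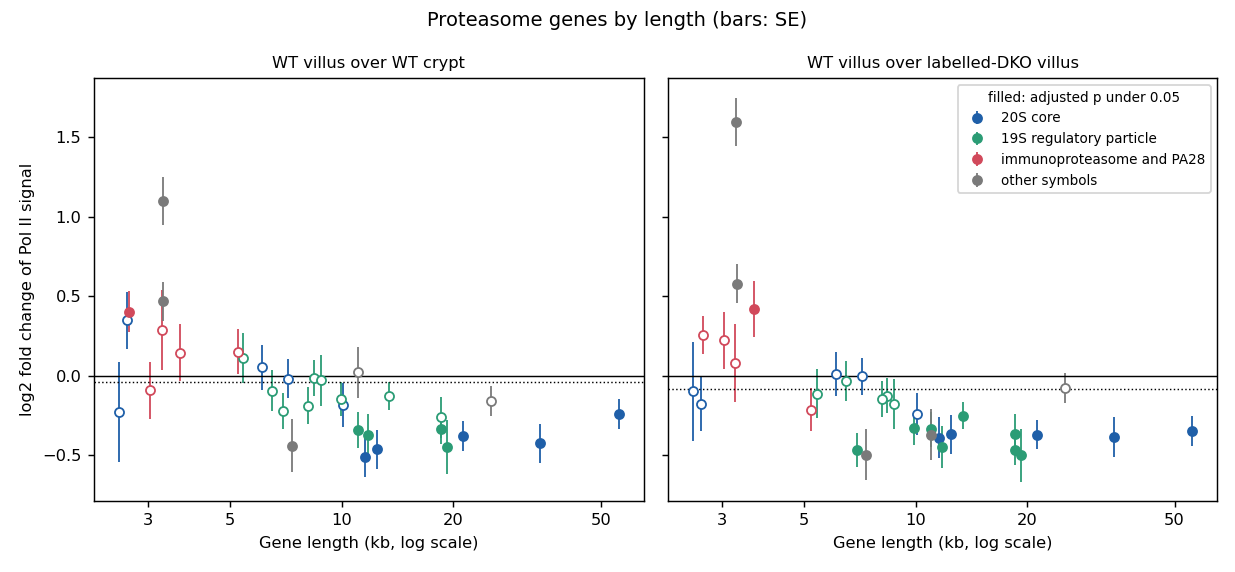
Log2 fold change of Pol II signal (vertical axis, bars SE) against gene length in kb (horizontal axis, log scale) for the 33 proteasome genes; filled points passed an adjusted p of 0.05 and the dotted line is the median of all genes. No gene up to 5 kb was called lower in WT villus, and 9 of the 10 genes between 10 and 20 kb were called lower against labelled-DKO villus.

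The labelled-DKO villus was compared with crypt by subtracting, gene by gene, one of the 2 deposited log2 fold changes from the other. Of the 33 genes, 0 were called, with an SE set to its largest possible value and a Benjamini-Hochberg adjustment of normal p-values over all genes. At an unadjusted p under 0.05 there were 2, Psmb4 and Psmg3. Among all genes 6.41% were called higher and 7.19% lower in labelled-DKO villus than in crypt. The log2 fold changes of the proteasome genes ran from -0.50 at Psmg3 to 0.53 at Psmb4, with a median of 0.05, and the smallest adjusted p was 0.111. The median was -0.01 for the core genes and 0.11 for the regulatory genes. For Psma1 the difference was -0.12 with an interval from -0.48 to 0.24, and for Psmd12 it was 0.13, from -0.12 to 0.39. With an SE rebuilt from the shared fit, 4 genes were called: Psmb4 at 0.53, Psmb9 at 0.37 and Psmg1 at 0.39 were higher in labelled-DKO villus than in crypt, and Psmg3 at -0.50 was lower. Among all genes that SE called 15.5% higher and 14.2% lower.

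Of 16 other genes of the ubiquitin-proteasome pathway, 7 (43.8%) were called lower in WT villus and 3 (18.8%) higher against crypt, around a median of -0.20, where all genes gave 18.8% and 18.6%. Against labelled-DKO villus 9 (56.2%) were called lower and 2 (12.5%) higher, around a median of -0.31, where all genes gave 29.5% and 22.4%. Nfe2l1, the regulator of subunit genes, was at -0.26 ± 0.09 (adjusted p = 0.0170) and -0.57 ± 0.09 (adjusted p = 2.54e-09), with means of 115 in WT villus, 138 in crypt and 170 in labelled-DKO villus. Ddi2, the protease that activates the Nfe2l1 product, and Vcp, Ufd1 and Nploc4, which together extract ubiquitinated proteins, were lower in both comparisons. So was Akirin2, which is needed for the import of proteasomes into the nucleus. Values for these 5 ran from -0.28 to -0.33 against crypt and from -0.31 to -0.40 against labelled-DKO villus. The windows of Ddi2 overlap those of Rsc1a1, the windows of Ufd1 those of Cdc45, and the windows of Akirin2 those of Orc3. Reads in these overlaps cannot be assigned to one of the pair, and their part in the values was not tested. Zfand2a, a stress-induced proteasome-binding gene, was at 0.03 ± 0.17 (adjusted p = 0.896) and -0.79 ± 0.16 (adjusted p = 4.54e-06). It was also the 1 gene of this list called between labelled-DKO villus and crypt, at 0.83.

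Among the genes of the list that were higher in WT villus, the stress-inducible polyubiquitin gene Ubb was at 1.29 ± 0.21 (adjusted p = 2.68e-08) against crypt and at 1.27 ± 0.21 (adjusted p = 1.77e-08) against labelled-DKO villus. Nfe2l2, the oxidative stress regulator, was at 0.56 ± 0.13 (adjusted p = 1.30e-04) and 0.65 ± 0.13 (adjusted p = 3.31e-06). Pomp, the factor that completes core assembly, was at 0.38 ± 0.10 (adjusted p = 6.32e-04) against crypt and 0.19 ± 0.10 (adjusted p = 0.0811) against labelled-DKO villus.

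Of 9 tested interferon-inducible or antigen-processing genes, 4 were higher in WT villus than in crypt and 5 than in labelled-DKO villus, and 0 were lower. These are 44.4% and 55.6%, where 18.6% and 22.4% of all genes were called higher and 18.8% and 29.5% lower. The medians were 0.26 and 0.28. B2m, the light chain of MHC class I, was at 0.96 ± 0.10 and 1.55 ± 0.10, the peptide-loading factor Tapbp at 0.69 ± 0.10 and 0.52 ± 0.10, and the regulator Irf1 at 0.95 ± 0.17 and 0.66 ± 0.17. The windows of B2m overlap those of Patl2, and reads in the overlap cannot be assigned to one of the pair. Irf7 was at 0.60 ± 0.15 and 0.44 ± 0.14. Irf9 passed against labelled-DKO villus alone, at 0.28 ± 0.11 (adjusted p = 0.0266), and Tap2 was at 0.16 ± 0.13 and -0.11 ± 0.13 and passed in neither. The summed level of the 5 tested immune markers was 522 normalised counts in WT villus, 351 in crypt and 261 in labelled-DKO villus, and its part in these values was not tested. That sum follows Cd74, H2-Aa and H2-Ab1, the markers that enterocytes can also express. Gzma was at 79.4 in WT villus, 69.6 in crypt and 92.9 in labelled-DKO villus, and Gzmb at 39.6, 42.7 and 42.2.

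**Figure D5:**
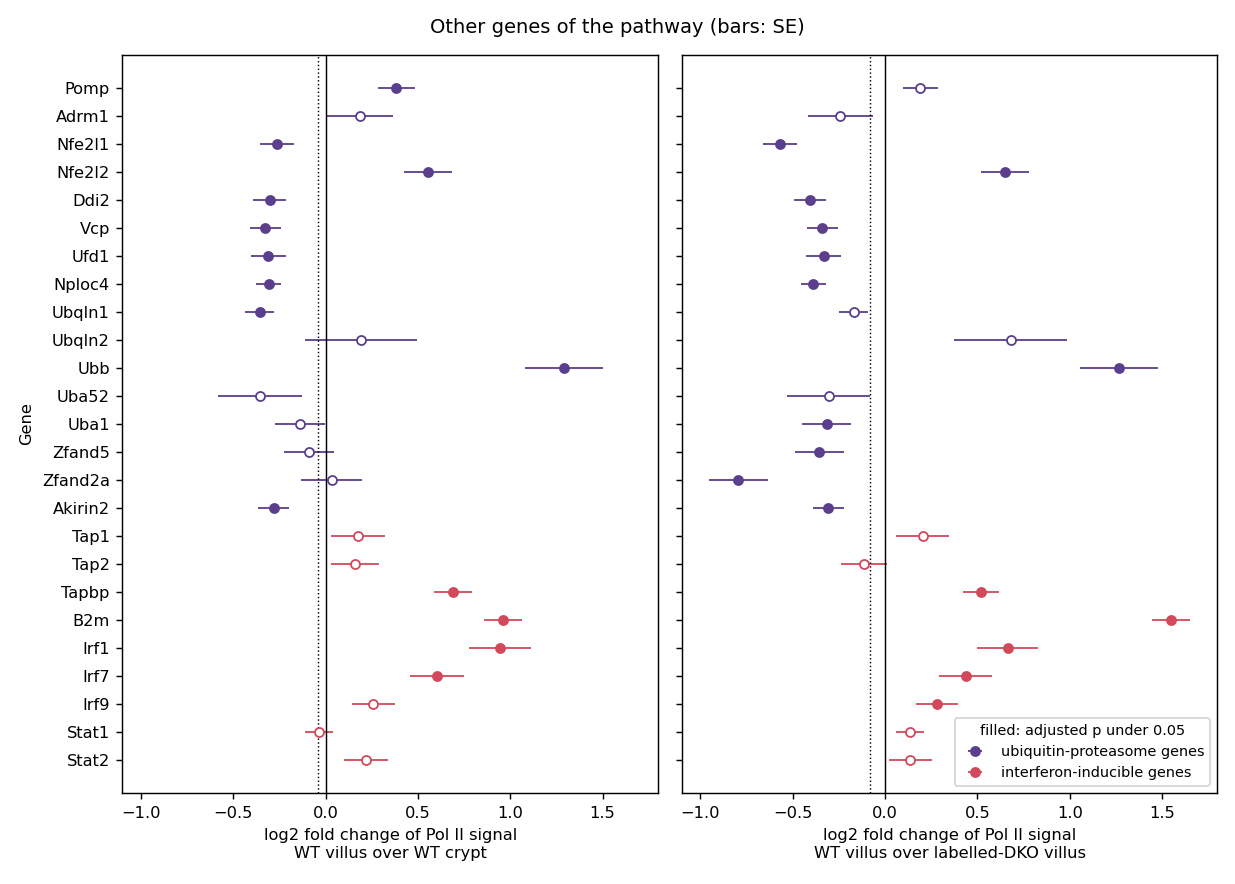
Log2 fold change of Pol II signal (horizontal axis, bars SE) at 16 other ubiquitin-proteasome genes and 9 interferon-inducible genes, for WT villus over WT crypt and over labelled-DKO villus; filled points passed an adjusted p of 0.05 and the dotted line is the median of all genes. Ubb, at 1.29 and 1.27, lies far to the right in both panels, and Zfand2a, at -0.79, is the lowest value in the second.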

How the data were processed

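Pol II ChIP-seq libraries were aligned to mm9 by the authors, per the submitters' processing notes, which also name Bowtie2 2.2.6, SAMtools 0.1.19, Picard, deepTools 2.4.2, FastQC 0.11.3, featureCounts and DESeq2 1.36.0. Both comparison tables were deposited by the authors with 6429 genes each. The deposited mean signal, the mean over libraries of counts divided by size factors, was the same in both tables. The deposited log2 fold change and its SE are on the log2 scale, and the deposited score is the Wald statistic, equal to their ratio within 1.78e-07. The deposited adjusted p-value equals the Benjamini-Hochberg adjustment over all genes within 3.76e-07. The gene filter, the window counted and any shrinkage are not given in the sources used here. Their count tables name no samples, so 18 columns of per-library counts were not used in any step, and the depth of single libraries was not analysed here. Precision is given by the SE, with a median of 0.14 over all genes in both tables.

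From the window tables, positions were used alone: gene start and end were worked out from promoter windows of 402 bp and from gene body windows, and the length equalled that of RefSeq for 23 of the 33 genes. Gene body windows of all 21190 minus-strand transcripts contained the promoter window, and those of 0 of 19858 plus-strand transcripts did. Of the 33 genes, 16 are on the minus strand, and whether the deposited comparisons used these windows is not given in the sources used here.

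Group means were rebuilt from the mean signal and both fold changes, with equal group sizes and unshrunken values assumed. Labelled-DKO villus minus crypt was the difference of the fold changes. Intervals of 95% are the value ± 1.96 SE. The rebuilding was run on simulated data drawn under these same assumptions, which cannot show that they hold for the deposited values. Python 3.11.15, pandas 2.3.3, NumPy 2.4.6, SciPy 1.17.1 and matplotlib 3.10.9 were used. The genes and gene lists were chosen with earlier results of these data known. Named were all 33 genes by role, with full values for the immunoproteasome group and the catalytic subunits, the extremes of each class and genes called beyond 0.5. Of other pathway genes, those called beyond 0.5 were named, with Nfe2l1, Nfe2l2, Pomp, Tap1, Tap2, Hnf4a and Hnf4g. Some genes of the pathway list are not reported here. Further genes named from these lists were chosen after their values were seen. Alternatives were a stricter threshold, fold change limits, centring, a minimum signal, no overlapping windows and another SE.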

Additional observations from a re-analysis of the deposited data

How the results depend on the processing

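Shares of all genes called under the same setting stand in parentheses. Against crypt, 13 of the 33 genes were called (37.4%). This became 8 at an adjusted p under 0.01 (27.0%), 2 with a log2 fold change beyond 0.5 as well, Psma1 and Psmg3 (18.2%), and 1, Psmg3, in a Wald test against changes up to 0.5 (3.92%). Against labelled-DKO villus, 18 were called (51.9%), 15 at an adjusted p under 0.01 (40.9%), 2 with a change beyond 0.5, Psmg3 and Psmc3ip (29.2%), and 1, Psmg3, in the test against changes up to 0.5 (9.91%). Between labelled-DKO villus and crypt the count was 0 (13.6%), and 4 with the SE rebuilt from the shared fit (29.7%). After centring on the median of all genes the counts were 12, 16 and 0 (35.9%, 48.7% and 13.7%). The 2 other alternatives used fewer genes, so their counts cannot be set directly beside 13 and 18. Of the 19 genes whose mean signal reached 100, 10 and 15 were called (47.0% and 61.6%). Those are 52.6% and 78.9% of the 19, where the 33 genes gave 39.4% and 54.5%. Of 24 genes without an overlapping window, 10 and 13 were called (39.3% and 54.5%). Centring reversed the sign of values near 0: against crypt Psma4 became 0.025, Psmc4 0.030 and Psmd6 0.013, and against labelled-DKO villus Psma4 became 0.078, Psmd8 0.050 and Psmf1 0.0018. It also ended the calls of Psmb7 against crypt and of Psmc2, Psmd3 and Psmg1 against labelled-DKO villus, and brought Psmb10 past the threshold there, at 0.34. Of the values for single genes under these settings, 479 kept direction and side of the threshold, 68 lost the call, 5 gained it and 6 reversed. Only centring alters a log2 fold change, so no direction could reverse under the other settings. A stricter threshold or a fold change limit can only remove calls. Much of the 479 was therefore fixed in advance and is no measure of stability. The fewer calls under the fold change limits follow from effects mostly under 0.5.

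No paired analysis was possible because the count columns carry no sample names and the results come from deposited comparisons. For the same reason leaving out single libraries could not be run, so whether 1 library decides a value was not tested.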
